A study of Mus musculus with 13 samples.

Results

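Cortical layer identity genes are used to tell the sheets of neurons of the cerebral cortex apart. A list of 30 of them was followed across 4 groups of frontal cortex libraries. Of the 55536 genes in the files, the 30 were taken by symbol from the list, with a summed count of at least 10 over the 13 libraries as the condition, and all 30 met it. The list holds 9 genes of the upper layers, 4 of layer 4, 8 of layer 5 and 9 of layer 6. The selection rule uses no measured value beyond that minimum, although the list was drawn up with earlier results of these data known.

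Neurons of the upper layers send axons mainly to other cortical areas, and those of layer 4 receive input from the thalamus. Layer 5 holds the cells that project to the brainstem, spinal cord and striatum, and layer 6 holds the cells that project back to the thalamus. Many genes of the list encode transcription factors that set these identities during development and stay on in the adult, while others encode receptors, synaptic proteins or calcium-handling proteins of the same cells.

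The 4 groups were 5XFAD mice at 6 months (3 libraries), wild-type mice of strain B6SJLF1/J at 6 months (4 libraries), 5XFAD mice at 11 months (3 libraries) and wild-type B6SJLF1/J mice at 11 months (3 libraries). 5XFAD mice carry human transgenes under regulatory sequence of the mouse Thy1 gene, which is active in neurons, and serve as a model of amyloid deposition. The labels name no litter, sex or dissection. The titles give each library a number of its own without saying whether it stands for an animal, so that p-values measure the spread between libraries, and how much of it is technical is not known. Levels between libraries are given as CPM (counts scaled to a common library total, further adjusted by TMM normalization), and levels between genes are given as TPM, which also allows for transcript length.

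Library totals ran from 23618289 to 26615772 counts, and the mitochondrial share from 7.89% to 11.43%. Read from Xist and Y-linked genes, the sexes at 6 months were 3 males of 3 in 5XFAD and 2 males of 4 in wild type. At 11 months 1 of 3 libraries was male in 5XFAD and 2 of 3 in wild type, so that each group except 5XFAD at 6 months came from more than 1 animal. All 8 markers of excitatory cortical neurons reached 1 CPM, as did all 14 markers of the striatum, the nucleus that lies beneath the frontal cortex. The summed striatum markers were 2487, 2722 and 872.7 CPM in 5XFAD libraries at 6 months, against 3582, 2116, 4691 and 1952 CPM in wild type. At 11 months they were 1050, 1163 and 438.3 CPM in 5XFAD libraries, against 841.6, 438.8 and 4182 CPM in wild type. The 3 libraries above 3000 CPM, replicates 1 and 3 at 6 months and replicate 3 at 11 months, were all wild type. Without them 12 of the 30 layer genes changed the sign of their genotype difference at 6 months and 9 at 11 months, none of which had passed the test with them. Their omission leaves wild-type replicates 2 and 4 at 6 months and wild-type replicates 1 and 2 at 11 months. Wild-type replicate 3 at 11 months also had the lowest summed excitatory markers, 3439 CPM against 4287 to 7438 CPM in the other 12 libraries. Wild-type replicate 1 at 6 months stood apart by its choroid plexus markers, with 2968 CPM against 5.17 to 37.6 CPM elsewhere.

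Levels differed widely between the 30 genes. Pcp4, which encodes a regulator of calmodulin, was the highest, with a mean of 1200 ± 591 TPM (SD, n = 13), followed by the thyroid hormone-binding protein gene Crym with 120 ± 39.5 TPM and Rprm, a gene known as a brake on the cell cycle, with 88.5 ± 21.7 TPM. The upper-layer genes ran from 3.51 TPM for the adhesion gene Mdga1 to 38.9 TPM for the calcium-binding protein gene Calb1. The layer 4 genes ran from 1.26 TPM for the sodium channel subunit gene Scnn1a to 18.8 TPM for Whrn. The lowest of the 30 was Npr3, the clearance receptor gene of natriuretic peptides, with 1.14 ± 0.362 TPM. Where SDs overlap, as for Rorb and Sox5 at 5.16 TPM each, the order of neighbours carries no difference.

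The 30 genes varied more between libraries than most genes did. Over all 13 libraries, differences between groups included, the highest library exceeded the lowest by a median of 3.01-fold over the 30, against 1.78-fold over the 17483 genes tested and 1.59-fold over the 12473 genes within the same range of mean level. The coefficient of biological variation within groups had a median of 0.22 over the 30, against 0.143 over all genes tested, and was 0.185 in the upper layers, 0.193 in layer 4, 0.312 in layer 5 and 0.195 in layer 6. Nxph4, a neurexin ligand gene of layer 6, covered the widest range of the 30, from 0.848 to 10.3 CPM, and Cux1 the narrowest, from 56.8 to 93.7 CPM. Exons of 8 of the 30 genes overlap another annotated gene, among them Pcp4 with Igsf5, and none of these partners averaged more than 0.0953 CPM.

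Between genotypes, 1 of the 30 genes passed the test. Rorb, which encodes a nuclear receptor that marks layer 4 neurons, rose 1.6-fold in 5XFAD at 11 months, and no layer gene passed at 6 months. The count of 1 higher at 11 months compares with 3.8% called higher among all 17483 genes tested, that of 0 lower with 0.503%, and that of 0 at 6 months with 1.32% called in either direction, so that neither count stands apart from the background. At 6 months none of the 30 had an unadjusted p under 0.05 by edgeR's quasi-likelihood test (all genes: 5.61% higher and 3.48% lower), and DESeq2 also called none. At 11 months 3 did, all higher in 5XFAD (8.87%), namely Rorb, Whrn and Rprm. The same 3 were the genes whose 5XFAD libraries all lay above the wild-type libraries at 11 months (all genes: 10.4%), and none lay below (8.76%). At 6 months no layer gene separated the genotypes in either direction (6.97% above and 5.07% below). In bulk tissue, fewer cells of a type and less RNA per cell cannot be told apart.

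**Figure D1:**
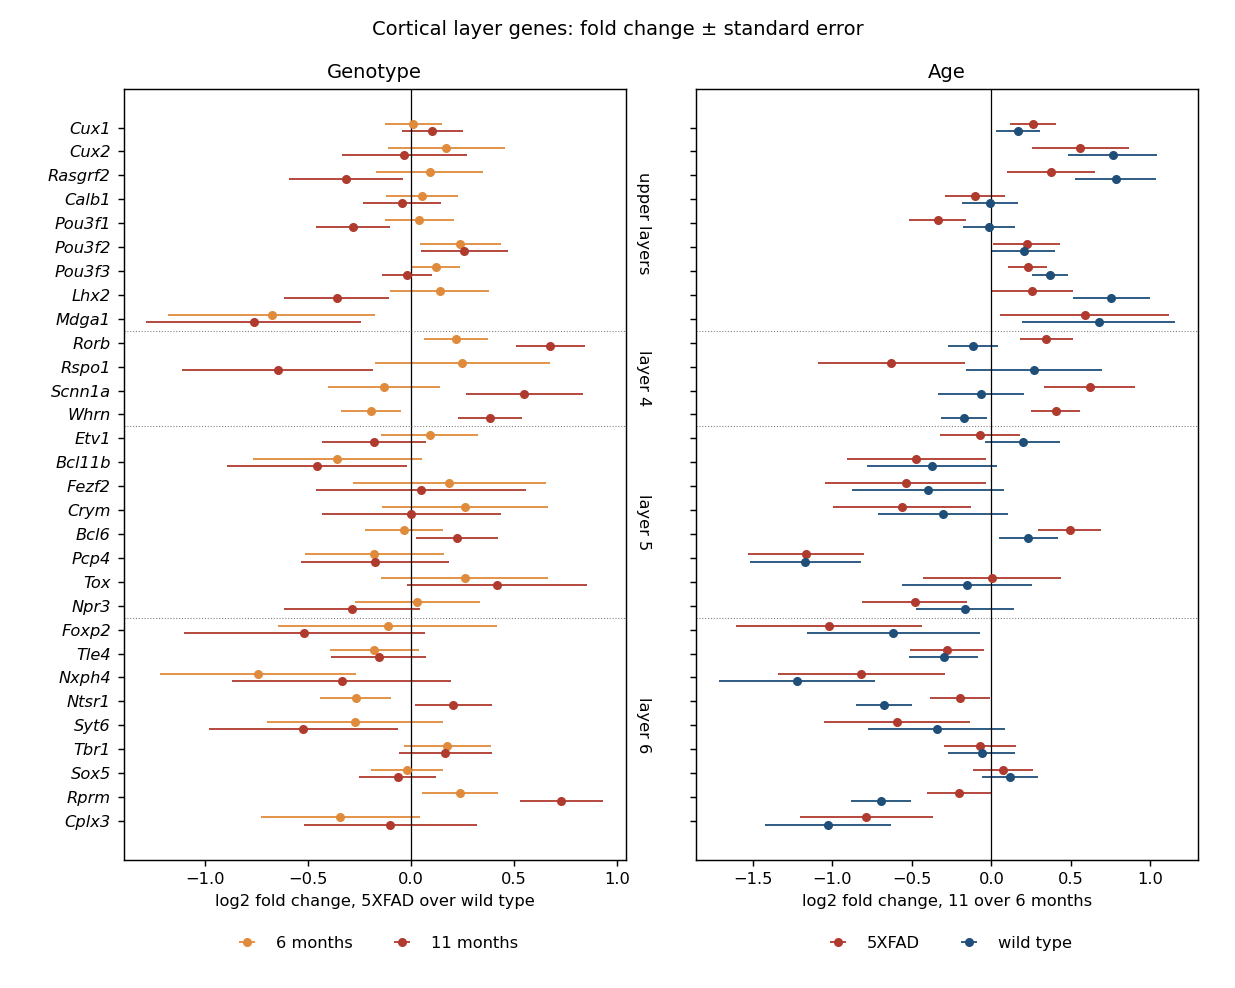
Log2 fold changes of the 30 layer genes with their standard errors from the edgeR fit, as 5XFAD over wild type at each age in the left panel and as 11 over 6 months in each genotype in the right panel. At 11 months 3 of 4 layer 4 genes lie above 0 in the left panel, and in the right panel 7 of 9 upper-layer genes lie above 0 and 8 of 9 layer 6 genes below it in both genotypes.

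Rorb lies on chromosome 19 (GRCm38, 18930605 to 19111196, minus strand). RefSeq (GRCm38.p6) holds 2 starts for it, and gene-level counts do not tell their transcripts apart. Since Rorb alone passed, the 250 bases before each start are shown, on the strand of the gene, with every CG dinucleotide in capitals.
Rorb, chr19:19111197-19111446: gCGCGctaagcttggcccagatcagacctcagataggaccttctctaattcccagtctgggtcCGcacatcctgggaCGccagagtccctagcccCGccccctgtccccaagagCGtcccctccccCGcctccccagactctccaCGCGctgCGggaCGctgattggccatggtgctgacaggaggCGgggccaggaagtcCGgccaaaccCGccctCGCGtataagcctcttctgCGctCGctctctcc
Rorb, chr19:19001118-19001367: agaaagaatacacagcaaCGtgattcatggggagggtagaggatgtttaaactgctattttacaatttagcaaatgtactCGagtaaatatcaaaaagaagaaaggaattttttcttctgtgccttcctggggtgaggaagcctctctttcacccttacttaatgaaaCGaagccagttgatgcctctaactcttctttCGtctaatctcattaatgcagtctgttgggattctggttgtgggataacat
The outer window had a GC content of 66.0% and 18 CG dinucleotides, and the inner window 39.2% and 4. The inner window overlapped no annotated exon. The outer window lies beyond the annotated span of the gene, where exons were not searched.

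At 11 months Rorb had 44.2, 36.0 and 46.6 CPM in 5XFAD libraries, against 21.9, 35.7 and 21.8 CPM in wild type. The groups did not overlap, although wild-type replicate 2 came within a fraction of 1 CPM of the lowest 5XFAD library. The means were 42.28 ± 5.60 CPM in 5XFAD and 26.46 ± 8.0 CPM in wild type (SD, n = 3 each), a log2 fold change of 0.68 ± 0.17 (SE, adjusted p = 0.0363, edgeR). At 6 months Rorb had 32.6, 36.2 and 31.1 CPM in 5XFAD libraries, against 26.6, 31.6, 27 and 29.4 CPM in wild type. The groups overlapped, and the log2 fold change of 0.22 ± 0.157 (SE) did not pass (adjusted p = 0.751, edgeR). The difference between the genotype effects at the 2 ages was 0.46 ± 0.23 (SE, log2, adjusted p = 1, edgeR), and over both ages together Rorb rose by 0.45 ± 0.115 (SE, log2, adjusted p = 0.0335), as the only layer gene called there (all genes: 4.88% higher and 1.46% lower). That call was lost in 10 of the 13 fits that left out 1 library (adjusted p 0.0535 to 0.101), on log2(TPM + 1) (0.27, adjusted p = 0.0851) and without the 3 striatum-rich libraries (0.34, adjusted p = 0.174).

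The call at 11 months was lost without any of 7 of the 13 libraries, which were replicates 1 and 3 of each group of that age, 5XFAD replicates 1 and 3 at 6 months and wild-type replicate 4 at 6 months (adjusted p 0.0523 to 0.176, log2 fold change 0.55 to 0.68). Without wild-type replicate 2 at 11 months it was 0.95 (adjusted p = 0.000445), and without the 3 striatum-rich libraries 0.55 (adjusted p = 0.127). Rorb is also known from astrocytes, and astrocyte markers moved with it. The 7 astrocyte markers summed to 5159, 6170 and 6205 CPM in 5XFAD at 11 months, against 3250, 5320 and 3794 CPM in wild type, where the highest library, replicate 2, was also the highest in Rorb. At 6 months they summed to 3387 to 3760 CPM in 5XFAD libraries and to 2823 to 2910 CPM in wild type. With the astrocyte marker level as a covariate the log2 fold change at 11 months was -0.05 (adjusted p = 0.977), in a fit that called 0 of all genes at that age. The covariate, the mean log2 level of these markers, did not overlap between genotypes at either age. At 6 months it was 8.005 to 8.135 in 5XFAD and 7.429 to 7.617 in wild type. At 11 months it was 8.707 to 8.938 in 5XFAD and 7.775 to 8.261 in wild type. Since it follows genotype so closely, this fit cannot separate astrocyte level from genotype. The part of astrocytes in the Rorb result was not tested.

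The other 3 genes of layer 4 did not pass at either age, and they did not move alike. Whrn, which encodes a scaffold protein known from the inner ear, had 38.1, 36.5 and 50.9 CPM in 5XFAD at 11 months, against 29.8, 34.9 and 31.7 CPM in wild type. These groups did not overlap either, yet the log2 fold change of 0.38 ± 0.155 (SE) had an adjusted p of 0.232 (edgeR). Scnn1a, whose promoter is used to label layer 4 cells in mice, had 5.06, 3.27 and 3.76 CPM in 5XFAD libraries, against 3.98, 2.46 and 1.79 CPM in wild type at 11 months. The groups overlapped, with a log2 fold change of 0.55 ± 0.284 (SE, adjusted p = 0.379), which was 0.32 without wild-type replicate 3. Rspo1, which encodes an enhancer of Wnt signals, had 9.18, 11.2 and 6.43 CPM in 5XFAD libraries, against 26.5, 9.13 and 6.41 CPM in wild type, where replicate 1 alone exceeded 10 CPM.

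**Figure D2:**
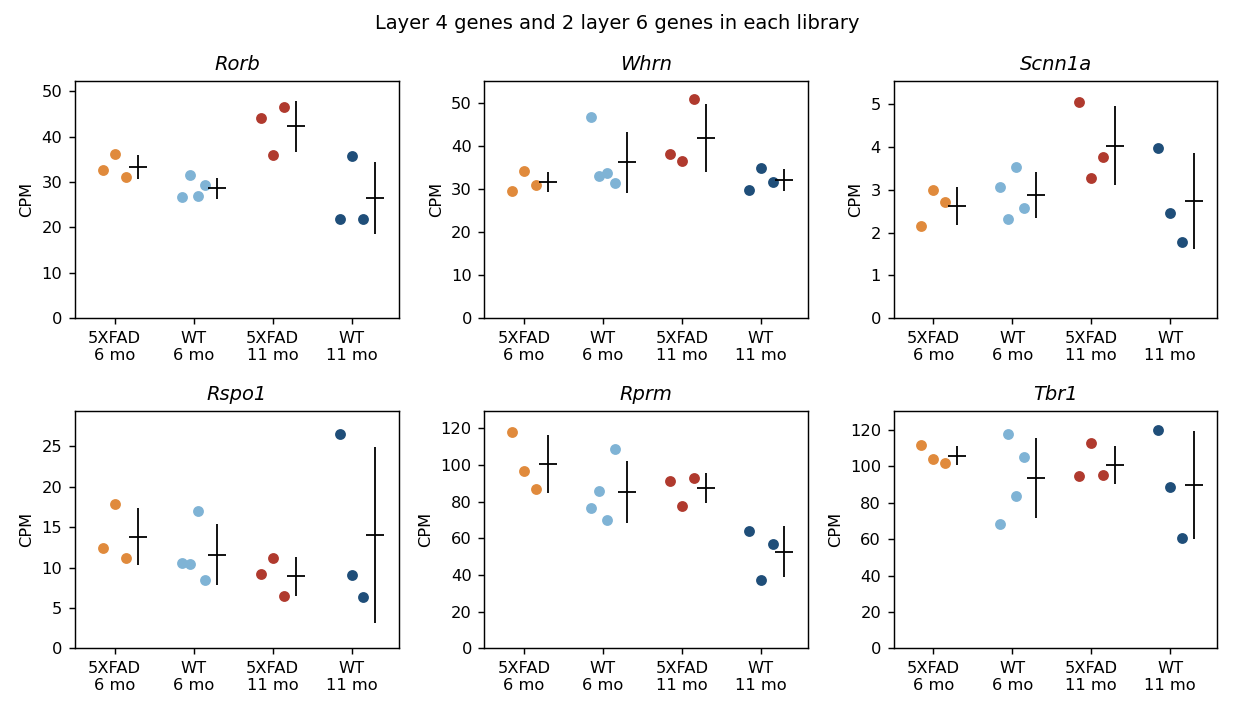
CPM of the 4 layer 4 genes and of the layer 6 genes Rprm and Tbr1 in each library, with points for libraries, a cross bar for the group mean and a vertical line for ± 1 SD (n = 3, and 4 for wild type at 6 months). At 11 months the 5XFAD points of Rorb, Whrn and Rprm lie above all wild-type points, and those of Scnn1a, Rspo1 and Tbr1 overlap them.

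In layer 6, Rprm (chromosome 2, 54084093 to 54085552, minus strand) came closest to the threshold. It had 91.4, 77.8 and 93.2 CPM in 5XFAD at 11 months, against 64.0, 37.3 and 56.9 CPM in wild type, groups that did not overlap. Its log2 fold change of 0.73 ± 0.20 (SE) had an adjusted p of 0.0656 by edgeR and of 0.00824 by DESeq2. Without wild-type replicate 2, which held the lowest of the 13 values, it was 0.53 (adjusted p = 0.139), and without wild-type replicate 1 it was 0.89 (adjusted p = 0.0409). At 6 months Rprm had 118, 96.9 and 86.9 CPM in 5XFAD libraries, against 76.6, 85.7, 69.9 and 109 CPM in wild type, with overlap.

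The other 8 genes of layer 6 gave no call at either age. Tbr1, a T-box factor required for layer 6 identity, averaged 100.9 ± 10.2 CPM in 5XFAD and 89.98 ± 29.8 CPM in wild type at 11 months (SD, n = 3 each). Sox5, a factor that times the birth of deep-layer neurons, averaged 24.76 ± 0.264 CPM in 5XFAD and 25.92 ± 8.46 CPM in wild type. The forkhead factor gene Foxp2 and the synaptotagmin gene Syt6 had log2 fold changes of -0.52 ± 0.585 and -0.52 ± 0.461 (SE, adjusted p = 0.741 and 0.66, edgeR). The wild-type values of Foxp2 at 11 months were 11.4, 7.19 and 36.4 CPM, so that 1 library, replicate 3, exceeded every 5XFAD library of that age. Without that library the values were 0.46 for Foxp2 and 0.07 for Syt6. The layer 6 median was -0.10 at 11 months and -0.18 at 6 months, against -0.03 and -0.01 over all genes tested, and without the 3 striatum-rich libraries it was 0.07 and -0.12.

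In the upper layers no gene passed at either age. Of the 9 genes, 8 had a positive log2 fold change at 6 months and 2 at 11 months, with medians of 0.09 and -0.05. On the log2(TPM + 1) scale, which moved the median of all genes to -0.107 and -0.118, 1 of the 9 was positive at each age. Cux1 and Cux2, homeobox factors of upper-layer neurons, gave 0.10 ± 0.147 and -0.03 ± 0.302 (SE) at 11 months, and the homeobox factor gene Lhx2 -0.36 ± 0.256. The POU factor genes Pou3f1, Pou3f2 and Pou3f3, of which Pou3f2 helps to specify upper-layer neurons, gave -0.28 ± 0.178, 0.26 ± 0.21 and -0.02 ± 0.122. Rasgrf2, which encodes an exchange factor for Ras and Rac, gave -0.32 ± 0.276, and Calb1 -0.05 ± 0.189. Mdga1 had the largest negative value of the 30, -0.77 ± 0.521, with 13.4, 10.6 and 13.6 CPM in 5XFAD libraries and 9.4, 13.5 and 41.2 CPM in wild type at 11 months, where replicate 3 alone was high. Without that library the value of Mdga1 was 0.13 (adjusted p = 0.921). Without the 3 striatum-rich libraries the upper-layer medians were 0.05 at 6 months and -0.11 at 11 months.

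In layer 5 the medians were 0.06 at 6 months and -0.09 at 11 months, with 5 and 4 of 8 genes positive and no call. Fezf2, the zinc finger factor that directs neurons to project below the cortex, gave 0.18 ± 0.469 at 6 months and 0.05 ± 0.509 at 11 months (SE, log2). Bcl11b, its downstream partner in these neurons, gave -0.36 ± 0.411 and -0.46 ± 0.439, and the ETS factor gene Etv1 0.09 ± 0.236 and -0.18 ± 0.253. The repressor gene Bcl6 gave -0.04 ± 0.188 and 0.22 ± 0.199, and Tox, a gene of the HMG-box family, 0.26 ± 0.405 and 0.42 ± 0.436. Crym averaged 87.28 ± 10.1 CPM in 5XFAD and 87.22 ± 53.6 CPM in wild type at 11 months (SD, n = 3 each), where the wild-type libraries ran from 30.2 to 137 CPM. The standard errors in layer 5 allow changes of either sign, and without the 3 striatum-rich libraries the medians were -0.14 at 6 months and 0.19 at 11 months, with 1 and 5 of 8 genes positive.

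Across ages none of the 30 genes passed in either genotype by edgeR. In 5XFAD 7.23% of all genes tested were called and in wild type 3.71%. In 5XFAD 3 layer genes were higher at 11 months at an unadjusted p under 0.05 (all genes: 13.8%) and 1 lower (10.6%), and in wild type 4 were higher (13.1%) and 5 lower (10.7%). DESeq2 called 1 layer gene in 5XFAD (lower) and 7 in wild type (4 higher and 3 lower). It also called more of all genes, 2084 in 5XFAD and 1848 in wild type, against 1264 and 649 by edgeR. The 2 age comparisons share no library. The genotype comparison at each age shares its 5XFAD libraries with the age comparison in 5XFAD. It shares its wild-type libraries with the age comparison in wild type.

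Pcp4 (chromosome 16, 96467606 to 96525793, plus strand) had the largest age difference of the 30 in 5XFAD. At 11 months it had 248, 180 and 183 CPM in 5XFAD libraries, against 565, 536 and 269 CPM at 6 months. In wild type it had 233, 122 and 334 CPM at 11 months, against 531, 420, 697 and 419 CPM at 6 months. In both genotypes every library at 11 months lay below every library at 6 months. The log2 fold change was -1.17 ± 0.365 (SE) in 5XFAD and -1.17 ± 0.348 in wild type, with adjusted p of 0.0759 and 0.0757 by edgeR and of 0.0249 and 0.0151 by DESeq2. With the striatum marker level as a covariate it was -0.62 (adjusted p = 0.0951) in 5XFAD and -0.71 (adjusted p = 0.0757) in wild type. Pcp4 is also known from medium spiny neurons of the striatum. Striatum markers were lower at 11 months by their medians, with 1050 against 2487 CPM in 5XFAD and 841.6 against 2849 CPM in wild type. The ranges overlapped between ages. They were 438.3 to 1163 against 872.7 to 2722 CPM in 5XFAD, and 438.8 to 4182 against 1952 to 4691 CPM in wild type. Wild-type replicate 3 at 11 months had 4182 CPM of markers, with Pcp4 at 334 CPM, below every wild-type value at 6 months. The part of striatum content in the age difference was not tested beyond the striatum marker covariate.

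The layers differed in the sign of their age medians. The upper-layer median was 0.25 in 5XFAD and 0.37 in wild type, with 7 of 9 genes positive in each. The layer 6 median was -0.28 in 5XFAD and -0.62 in wild type, with 8 of 9 genes negative in each, and the layer 5 median was -0.48 and -0.23. Layer 4 had 0.37 in 5XFAD and -0.09 in wild type. Over all genes tested the medians were 0.00 and 0.02. No test of a list was made, and these medians rest on genes that passed no test. The signs of the upper layers and layer 6 held without each library in turn (0.19 to 0.32 and -0.49 to -0.20 in 5XFAD, 0.23 to 0.42 and -0.73 to -0.23 in wild type), while in wild type the median of layer 4 ranged from -0.28 to 0.09 and that of layer 5 from -0.41 to 0.01. Without the 3 striatum-rich libraries the wild-type medians were 0.25 in the upper layers, 0.20 in layer 4, -0.42 in layer 5 and -0.70 in layer 6. At 11 months that fit rests on wild-type replicates 1 and 2. Replicate 2 deviated most of all libraries in layers 5 and 6 (mean log2 deviation -0.661 and -0.783). With the striatum marker level as a covariate the upper-layer medians were 0.17 in 5XFAD and 0.32 in wild type, and those of layer 6 were -0.15 and -0.26. With the astrocyte marker level as a covariate the 5XFAD medians turned to -0.35 in the upper layers and 0.47 in layer 6, in a fit that called 0 of all genes.

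Among the upper-layer genes, Cux2 had 70.2, 132 and 60.7 CPM in wild type at 11 months, against 55.1, 49.1, 47.0 and 55.8 CPM at 6 months. Every library at 11 months lay above those at 6 months, and the log2 fold change was 0.76 ± 0.282 (SE, adjusted p = 0.134, edgeR). In 5XFAD, Rasgrf2, Lhx2 and Pou3f3 gave 0.37 ± 0.276, 0.25 ± 0.257 and 0.23 ± 0.122. In wild type these genes gave 0.78 ± 0.256, 0.75 ± 0.239 and 0.37 ± 0.114. In 5XFAD, 7 of the 30 genes lay higher in every library at 11 months than in any at 6 months (all genes: 18.4%), namely Cux1, Pou3f2, Pou3f3, Mdga1, Scnn1a, Whrn and Bcl6. There, 5 lay lower in the same sense (17.3%), namely Rspo1, Crym, Pcp4, Npr3 and Cplx3. In wild type 2 lay higher (9.11%), Cux2 and Pou3f3, and 3 lower (7.96%), Pcp4, Ntsr1 and Rprm.

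In layer 6, the neurotensin receptor gene Ntsr1, whose promoter labels cells that project to the thalamus, had a log2 fold change of -0.20 ± 0.187 (SE) in 5XFAD. It had 8.17, 5.57 and 7.66 CPM in wild type at 11 months, against 14.2, 11.8, 9.04 and 10.5 CPM at 6 months. The groups did not overlap, and the log2 fold change of -0.67 ± 0.177 (SE) had an adjusted p of 0.0509 by edgeR and 0.00797 by DESeq2. Rprm gave -0.20 ± 0.199 in 5XFAD and -0.69 ± 0.19 in wild type (adjusted p = 0.0585). Without the 3 striatum-rich libraries the wild-type value of Rprm was -0.94 and passed (adjusted p = 0.0495), that of Ntsr1 was -0.70 (adjusted p = 0.0617) and that of Cplx3 was -0.24. Cplx3, a complexin gene of the deepest cortical cells, gave -0.79 ± 0.417 in 5XFAD and -1.03 ± 0.396 in wild type, and Nxph4 gave -0.82 ± 0.525 in 5XFAD and -1.22 ± 0.49 in wild type. Tle4, a corepressor of the Groucho family, gave -0.28 ± 0.232 in 5XFAD and -0.30 ± 0.217 in wild type. Tbr1 gave -0.07 ± 0.226 in 5XFAD and -0.06 ± 0.211 in wild type, and Sox5 0.07 ± 0.187 in 5XFAD and 0.12 ± 0.174 in wild type.

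None of the 30 genes passed the test for a difference between ages in the genotype effect (1 gene called, or 0.00572%, of all genes tested, while DESeq2 called 30 genes and no layer gene). The one with an unadjusted p under 0.05 was Whrn (all genes: 2.57% higher), whose effect was larger at 11 than at 6 months by 0.58 ± 0.212 (SE, log2, adjusted p = 1). For Whrn this difference ran from 0.41 to 0.67 with single libraries left out. Wild-type replicate 1 at 6 months had 46.8 CPM of Whrn, against 33.0, 33.8 and 31.4 CPM in replicates 2, 3 and 4. In layer 4 the difference between ages in the genotype effect was positive for Rorb, Scnn1a and Whrn and -0.90 ± 0.629 for Rspo1.

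**Figure D3:**
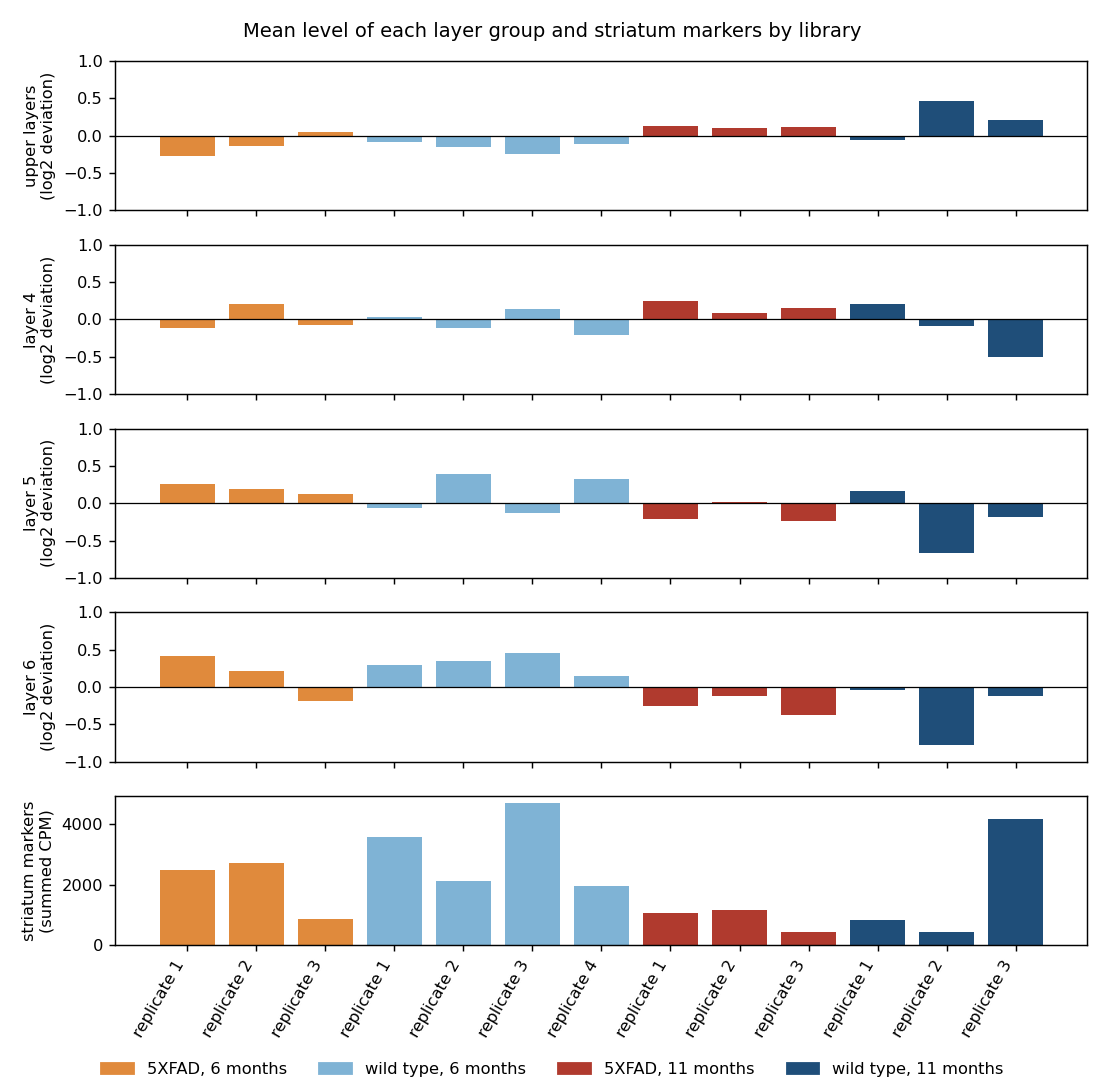
Mean deviation of each layer list from the mean of all 13 libraries (log2 of CPM, one bar a library) in the upper 4 panels, and the summed CPM of 14 striatum markers in the lowest panel. Wild-type replicate 2 at 11 months has the highest bar in the upper layers (0.467) and the lowest in layer 5 (-0.661) and layer 6 (-0.783).

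The libraries differed in the mean level of the layer lists within groups as well as between them. Wild-type replicate 2 at 11 months had the highest value of the 13 libraries for 6 of 9 upper-layer genes and the lowest for 6 of 9 layer 6 genes and 3 of 8 layer 5 genes. Its mean log2 deviation was 0.467 in the upper layers, -0.661 in layer 5 and -0.783 in layer 6. Wild-type replicate 3 of that age had the lowest values of 3 of 4 layer 4 genes and a mean deviation of -0.504 there. The 3 5XFAD libraries at 11 months lay closer together, between 0.102 and 0.133 in the upper layers and between -0.373 and -0.122 in layer 6. At 6 months layer 6 deviated by 0.419, 0.208 and -0.191 in 5XFAD, and the 4 wild-type libraries deviated by 0.152 to 0.457. Wild-type replicate 2 at 11 months also had few striatum markers (438.8 CPM). 5XFAD replicate 3 of that age had as few (438.3 CPM). It deviated by 0.111 in the upper layers, -0.233 in layer 5 and -0.373 in layer 6. The layer 5 and layer 6 lists hold genes that followed the striatum markers, as given below. Dissection depth is not recorded in the labels, and differences in dissection, in layer content and in striatum content cannot be told apart here.

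Part of this variation followed the striatum markers. With the group means in the fit, the slope of each gene on the mean log2 level of the 14 markers was estimated in all 13 libraries, and 6 of the 30 layer genes passed, 5 with a positive slope (all genes: 3.15%) and 1 with a negative slope (1.89%). The 14 markers are themselves among the genes tested, and this test was added after the data had been seen. Foxp2 rose by 0.66 ± 0.046 on the log2 scale for each doubling of the markers (SE, adjusted p = 7.85e-07, edgeR), Bcl11b by 0.49 ± 0.038 (1.82e-06), Syt6 by 0.49 ± 0.072 (0.00166), Nxph4 by 0.53 ± 0.115 (0.0161) and Pcp4 by 0.39 ± 0.065 (0.00376). Foxp2, Bcl11b and Pcp4 are known from medium spiny neurons of the striatum as well as from deep cortical layers. Lhx2, of the upper layers, fell by 0.26 ± 0.053 for each doubling (adjusted p = 0.012).

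**Figure D4:**
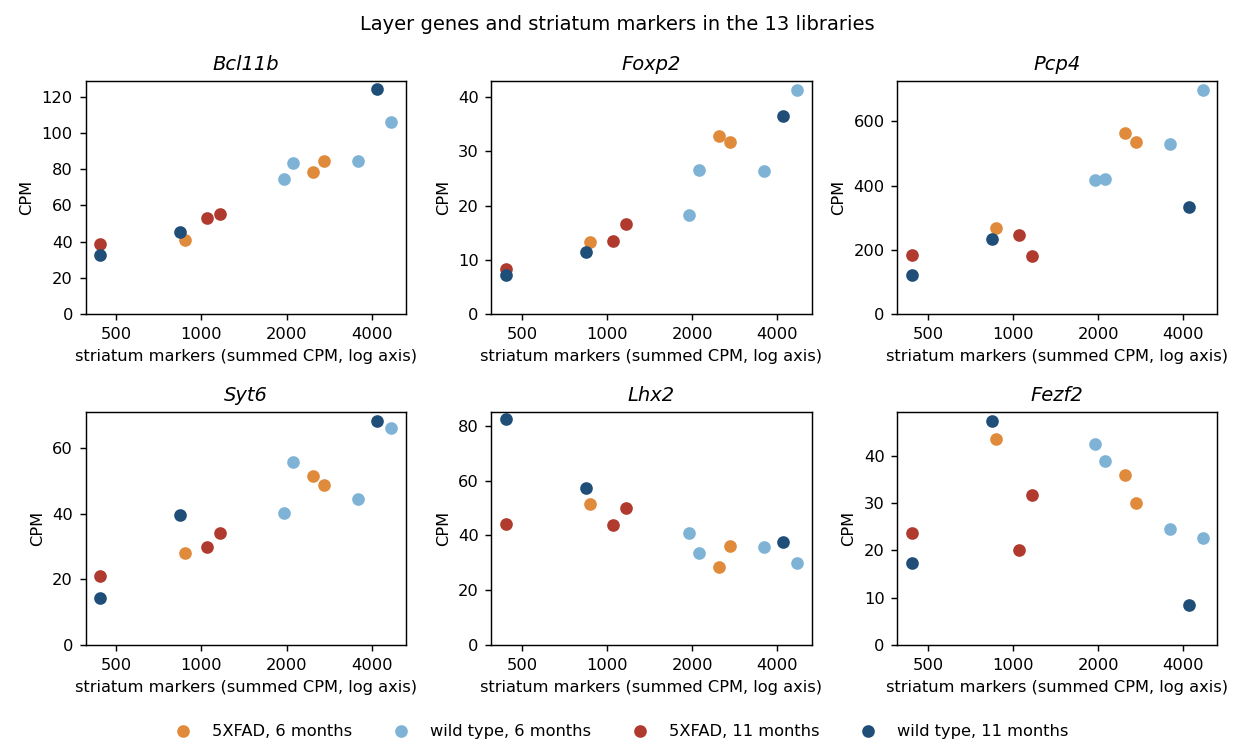
CPM of 6 layer genes against the summed CPM of 14 striatum markers (log axis), one point a library, coloured by group. Bcl11b, Foxp2 and Syt6 are lowest in the 2 libraries with the fewest striatum markers and highest in the 2 with the most. Pcp4 is highest in the library with the most but at 334 CPM in the next one. The wild-type library with 438.8 CPM of markers has the highest Lhx2 value, 82.4 CPM. The 5XFAD library with 438.3 CPM of markers has 44.2 CPM of Lhx2. The other 5XFAD libraries at 11 months have 43.8 and 50.2 CPM, at 1050 and 1163 CPM of markers.

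Bcl11b showed this in every group. It had 78.5, 84.3 and 41.0 CPM in 5XFAD at 6 months, where replicate 3 had the fewest striatum markers, against 84.6, 83.3, 106 and 74.5 CPM in wild type, where replicate 3 had the most. At 11 months it had 52.8, 55.4 and 38.7 CPM in 5XFAD, against 45.2, 32.6 and 124 CPM in wild type. In each of the 4 groups the library with the most striatum markers was the highest in Bcl11b. Fezf2, which acts upstream of Bcl11b in layer 5, had 47.3, 17.3 and 8.41 CPM in wild type at 11 months, with the lowest value in the striatum-rich replicate 3, and a slope of -0.34 ± 0.19 (SE, adjusted p = 0.403).

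Leaving out the 2 libraries farthest from the median marker level, wild-type replicate 2 and 5XFAD replicate 3 at 11 months, kept all 6 calls, with slopes of 0.70 for Foxp2, 0.53 for Bcl11b, 0.37 for Syt6, 0.46 for Nxph4, 0.38 for Pcp4 and -0.29 for Lhx2, and added Fezf2 at -0.70 (adjusted p = 0.0459). Leaving out single libraries left 3 to 9 layer genes called. Without wild-type replicate 3 at 11 months the calls of Lhx2 (adjusted p = 0.261), Nxph4 (0.193) and Syt6 (0.0532) were lost, and those of Lhx2 and Nxph4 also without wild-type replicate 2 at 11 months (0.103 and 0.0843) or 5XFAD replicate 3 at 6 months (0.0509 and 0.0544). Ntsr1, Rprm, Tbr1 and Cplx3, of layer 6 as well, had slopes of 0.03 ± 0.0688, 0.04 ± 0.0754, -0.14 ± 0.079 and -0.03 ± 0.183 (SE) and no call.

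**Figure D5:**
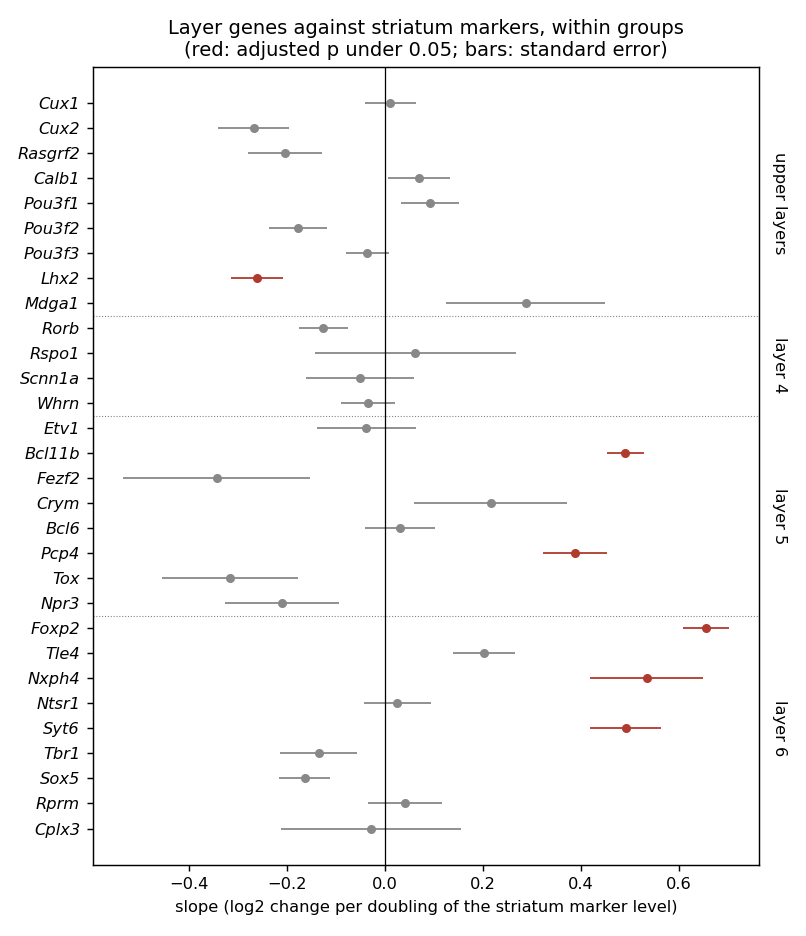
Slope of each layer gene on the striatum marker level within groups, in log2 change per doubling of the markers, with its standard error. The 6 genes in red passed at an adjusted p under 0.05, and layer 6 holds both genes with slopes near 0.5 or above and genes with slopes near 0.

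At 11 months, Foxp2, Bcl11b, Syt6, Nxph4 and Pcp4 had genotype values of -0.52, -0.46, -0.52, -0.34 and -0.18 (log2), none of which passed. Without the 3 striatum-rich libraries they were 0.46, 0.33, 0.07, 0.31 and 0.19. With the striatum marker level as a covariate they were 0.09, 0.01, -0.09, 0.20 and 0.12. None of these passed either, and the call of Rorb at 11 months was kept in the same fit (0.63, adjusted p = 0.017). Foxp2, Bcl11b, Syt6, Nxph4 and Pcp4 were picked by their slopes in the same libraries, and the 3 libraries omitted are all wild type. Their higher values in both fits follow largely from that choice and test no cause. The omission keeps wild-type replicate 2 at 11 months, the lowest library for each of these genes.

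A wider list held 35 further layer genes, of which 34 were tested. None was called in either genotype comparison at a single age or in either age comparison. Over both ages 1 of the 34 was called higher in 5XFAD (all genes: 4.88%) and 0 lower (1.46%), so that the count does not stand apart from the background. It was Endou, an endoribonuclease gene listed for layer 4 that has also been used to name a layer 5 cell type. Endou had 2.35, 2.62 and 2.53 CPM in 5XFAD at 6 months, against 1.84, 1.38, 1.01 and 1.55 CPM in wild type, and 2.43, 2.42 and 2.79 CPM in 5XFAD at 11 months, against 0.8, 1.33 and 1.71 CPM in wild type. All 6 5XFAD libraries lay above all 7 wild-type libraries (all genes: 2.01%; log2 0.89 ± 0.19, SE, adjusted p = 0.0109, edgeR), at a level of few CPM. On the striatum marker level 5 of the 34 passed, 3 with a positive slope (all genes: 3.15%) and 2 with a negative slope (1.89%). Stard8 and Nectin3, of the upper layers, fell by 0.35 and 0.27 on the log2 scale per doubling, and Slc17a8, a vesicular glutamate transporter gene also known from striatal interneurons, the opioid receptor gene Oprk1 and Thsd7b rose by 0.56, 0.56 and 0.25.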

How the data were processed

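Total RNA was prepared from frontal cortex and made into 13 libraries, which the titles call mRNA-seq. Per the submitters' processing notes, alignment was with STAR 2.7.1 to GRCm38 and quantification with RSEM. Which RSEM version, gene annotation and strand setting were used is not given in the sources used here. Expected counts, TPM and effective lengths were deposited by the authors for each gene, and between 7.24% and 7.71% of the expected counts in a library were not whole. Expected counts were rounded to whole numbers. All 55536 identifiers matched GENCODE M21 (GRCm38), which gave symbols and coordinates. Upstream windows come from RefSeq (GRCm38.p6), where 23 of the 30 genes matched. Human transgenes were not analysed here.

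Genes passed filterByExpr of edgeR 4.0.16, which left 17483 and all 30 layer genes. Library totals were scaled by TMM, and a single model with a mean for each of the 4 groups was fitted to all 13 libraries. Comparisons used the quasi-likelihood test of edgeR (robust), adjusted by Benjamini-Hochberg over all genes tested, and a gene was called at an adjusted p under 0.05 (R 4.3.3). Standard errors are the log2 fold change over the square root of F. No 2 libraries agreed within sampling noise (78 pairs, smallest chi-square per gene 6.49). The scripts were tested on simulated data. Totals of 23618289 to 26615772 counts limit the precision of the lowest genes most.

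Alternatives were DESeq2 1.42.0, its size factors, no filter, limma 3.58.1 on log2(TPM + 1) and with voom sample weights, sex as a covariate, a transcript length offset, only the groups compared, and each library left out. After the data were seen, the levels of striatum and astrocyte markers as covariates, the omission of 3 striatum-rich libraries and the slope test were added. The members and lists were chosen with earlier results of these data known. All 30 genes are named; of the wider lists, members past the threshold, up to 3 per layer and comparison.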

Additional observations from a re-analysis of the deposited data

Results flagged for a closer look

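In 3 of the 30 sets of 4 wild-type values at 6 months, 1 library stood far from the other 3 (gap to the nearest value over the range above Dixon's 95% critical value; chance flags about 1 in 20 groups). The highest Mdga1 value, in replicate 1, was 24.1 CPM. The highest Whrn value, also in replicate 1, was 46.8 CPM. The lowest Npr3 value, in replicate 3, was 3.76 CPM.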

How the results depend on the processing

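No paired analysis was possible because the titles carry no replicate numbers shared between groups. Under the alternatives, 4693 of 4770 values of single layer genes kept their side of the threshold, 45 were newly called, 30 lost their call and 2 turned their sign, while 440 values without a call changed sign. The 2 were Rorb with the astrocyte marker level as a covariate, at -0.047 at 11 months and -0.18 over both ages. Rorb also lost its call at 11 months on log2(TPM + 1) (0.48, adjusted p = 0.073), with sex as a covariate (0.67, 0.0809) and with only the groups compared (0.68, 0.203). The causes were not tested.

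Calls among all genes and among layer genes moved as follows. At 6 months 231 genes became 381 by DESeq2, 424 by voom and 4 with the astrocyte covariate. At 11 months 753 became 443 with only the groups compared and 0 with the astrocyte covariate, and the 1 layer gene became 2 by DESeq2 and 0 on log2(TPM + 1), with sex, with only the groups compared, with the astrocyte covariate and without the 3 striatum-rich libraries. Over both ages 1109 became 2186 on log2(TPM + 1) (605 higher, 1581 lower, against 853 and 256) and 6 with the astrocyte covariate, and the 1 layer gene became 2 by DESeq2 and 0 on log2(TPM + 1), with the astrocyte covariate and without the 3 libraries. For age in 5XFAD 1264 became 2084 by DESeq2, 825 on log2(TPM + 1), 3977 by voom, 799 with the length offset, 2610 with only the groups compared, 686 with the striatum covariate, 0 with the astrocyte covariate and 1941 without the 3 libraries, and 0 layer genes became 1, 6, 3 and 1 by DESeq2, voom, only the groups compared and without the 3 libraries. For age in wild type 649 became 1848 by DESeq2, 429 without the filter, 296 on log2(TPM + 1), 163 by voom, 345 with sex, 60 with the length offset, 1 with only the groups compared, 185 with the striatum covariate, 0 with the astrocyte covariate and 1054 without the 3 libraries, and 0 layer genes became 7 by DESeq2, 1 with sex and 1 without the 3 libraries. For the difference between ages in the genotype effect 1 became 30 by DESeq2, 4 on log2(TPM + 1), 0 with the astrocyte covariate and 4 without the 3 libraries.

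Leaving out each library gave 134 to 269 genes at 6 months, 424 to 840 at 11 months, 717 to 1310 over both ages, 97 to 1801 for age in 5XFAD, 0 to 1921 for age in wild type, 1 to 3 for the difference between ages and 176 to 1014 for the striatum slope. Layer genes called ranged from 0 to 1 at 11 months, over both ages and for age in 5XFAD, from 0 to 5 for age in wild type and from 3 to 9 for the striatum slope, with 0 at 6 months.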

Other observations

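Of the 30 layer genes, 23 had an upstream window in RefSeq (GRCm38.p6), with 31 windows of 250 bases in all. Rich in CG dinucleotides, with a GC content of at least 50% and an observed over expected ratio of at least 0.6, were 18 of the 31 windows (58.1%), against 31.0% of the 32851 windows in the table. The median GC content was 62.8% in the layer genes' windows and 52.4% over all windows. This is a description of the sequence, with no test. The table holds windows of 27025 genes, whether tested here or not, and no share over the genes tested was computed. In the wider list, 10 of 11 further layer 6 genes had a negative log2 fold change between 5XFAD and wild type at 6 months, with a median of -0.43 and no call, against 9045 negative of all 17483 genes tested and a median of -0.01. On the striatum marker level 9 of these 11 had a positive slope, with a median of 0.20 and 2 calls, and 2 of the 3 striatum-rich libraries are wild type at 6 months. Without the 3 libraries 9 of the 11 were negative, with a median of -0.35, and with the striatum marker level as a covariate 10 were, with a median of -0.32. With the astrocyte marker level as a covariate 3 were, with a median of 0.15. That covariate follows genotype closely, and its fit called 4 of all genes at 6 months, against 231 without it. For age, the wider lists of layers 4, 5 and 6 had medians of 0.007, 0.005 and -0.38 in wild type. In 5XFAD those medians were 0.09, -0.16 and -0.07, and 5 of 7 further upper-layer genes were positive, with a median of 0.33. All 7 further upper-layer genes had a positive age difference in wild type, with a median of 0.46 and no call, against 9102 positive of all genes tested and a median of 0.02. Without the 3 striatum-rich libraries the median was 0.52, and with the striatum marker level as a covariate it was 0.235. All 7 stayed positive in each of these fits. With the astrocyte marker level as a covariate the median was 0.14, with 4 of 7 positive. The astrocyte fit called 0 of all genes for age in wild type, against 649 without that covariate.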
